A study of Saccharomyces cerevisiae with 9 samples.

Results

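The genes described here encode the factors that drive the elongation step of protein synthesis in the budding yeast Saccharomyces cerevisiae. They were taken by gene name, with no measured value in the rule, as TEF1 (YPR080W), TEF2 (YBR118W), EFT1 (YOR133W), EFT2 (YDR385W), YEF3 (YLR249W), HYP2 (YEL034W), TEF4 (YKL081W) and EFB1 (YAL003W). All 8 had wild-type 5′ leaders, the part of an mRNA before its start codon, in a synthetic RNA pool. The deposited table of the pool, which stops at 1048575 positions, held 4384 wild-type RNAs of 2371 genes. The 8 genes accounted for 11 of those RNAs: HYP2, TEF4 and EFB1 each had 2 leaders, and the other 5 genes had 1. By ORF name all 8 are Watson-strand genes, as are 2153 of the 2265 other genes compared below, so Crick-strand genes are few in the comparison.

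The study probed the pool, transcribed in vitro, with dimethyl sulphate (DMS), a reagent that methylates unpaired A and C bases. Its 9 libraries formed 3 groups of 3. In the first, RNA heated to 95 °C for 2 min met DMS while denatured. In the second the heated RNA was refolded over 2 min at 30 °C before DMS was added, and in the third it was refolded but received no DMS. The deposited table held RNA sequences with read coverage and mutation rates under replicate numbers that did not name a treatment. Those values were therefore not used, and DMS reactivity was not analysed here. Every value below is a property of a deposited sequence or of its predicted fold, no library or replicate error attaches to it, and no test was run.

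During elongation, eEF1A (encoded identically by TEF1 and TEF2) brings each aminoacyl-tRNA to the ribosome, and the eEF1B complex recharges it with GTP. eEF2, the product of EFT1 and EFT2, moves the tRNAs and the mRNA along, and eEF3, an ATPase that fungi require, helps the spent tRNA leave. These proteins are among the most abundant in a growing yeast cell. Before elongation can begin, a scanning ribosomal subunit has to pass the leader and find the start codon, so the bases around that codon and the pairing of the leader are the features described here.

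The 30 bases around each start codon are shown because the base before the codon that the 8 genes share lies there. They are written as DNA, 5′ to 3′, with 15 bases before the start codon and 12 after it, and capitals mark the start codon and the third base before it.
TEF1: agttttaattacAaaATGggtaaagagaag
TEF2: tataattaactaAacATGggtaaagagaag
EFT1: taataacagataAaaATGgttgctttcact
EFT2: taacataattgcAagATGgttgctttcact
YEF3: cgataacattaaAagATGtctgattcccag
HYP2: caactcatatatAcaATGtctgacgaagaa
TEF4: ctcgatagattcAagATGtcccaaggtact
EFB1: atatatacacacAtaATGgcatccaccgat

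Position −3, the third base upstream of the start codon, was A in 8 of the 8 genes. It was A in 61.6% of all 2273 genes whose longest leader had at least 10 nt. In yeast this is the base of the start codon context with the best known effect on recognition of the codon. At the next base, −2, A stood in 6 of the 8 genes and in 41.7% of the 2265 other genes. G, the base at −1 in EFT2, YEF3 and TEF4, stood there in 16.2% of the others, while the other 5 genes had A in 4 cases and C in 1. U stood at −6 in 5 of the 8 genes, against 28.5% of the others, and A in 1, against 34.7%. C stood at −4 in 4 of the 8 genes, against 21.2% of the others.

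The 6 bases before the start codon were also scored together, as the log2 odds of each base at its position among the other genes against the base composition of all leaders. All 8 genes scored above the median of the other genes, 0.54. TEF1 had the highest score, 1.29, with 93.5% of the other genes lower, followed by TEF2 with 1.22. EFT1 scored 1.17 and TEF4 also 1.17, and these 4 genes formed the upper group. YEF3 at 0.91, EFT2 at 0.89, EFB1 at 0.88 and HYP2 at 0.79 formed the lower one. HYP2, the lowest of the 8, still scored above 66.8% of the other genes, and the quartiles of the others were −0.07 and 0.92. A at −3 enters this score, so the score and the count of A at that position are not separate observations.

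Lengths are those of the longest leader of each gene. TEF2, with 21 nt, had the shortest, TEF4 had 24 nt and TEF1 had 30 nt. EFB1 followed with 32 nt, EFT2 with 35 nt, YEF3 with 39 nt and EFT1 with 45 nt. HYP2, which encodes eIF5A, the hypusine-bearing factor that helps the ribosome through difficult peptide bonds, had the longest, 52 nt. The median was 33.5 nt against 52 nt in the other genes, and 7 of the 8 leaders were shorter than that median, as were 49.5% of all genes. With the shortest leader of at least 10 nt of each gene instead, the median was 32.5 nt against 31 nt and 4 of the 8 were longer than the others' median, so the direction rests on the choice of leader.

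Most of the leaders were rich in A. EFT2 had the highest A content, 54.3%, followed by TEF2 with 52.4% and EFT1 with 46.7%. HYP2 had 44.2%, EFB1 43.8% and TEF1 43.3%. These 6 genes were above the median of the other genes, 38.6%, a place that 50% of all genes take by construction. YEF3, with 33.3%, and TEF4, the gene of the eEF1Bγ subunit, with 25%, were below it. These last genes and TEF1 were rich in U: YEF3 had 38.5% U, TEF1 36.7% and TEF4 33.3%, against a median of 25.8% in the other genes, and the remaining 5 leaders had 14.3% to 23.8%. GC content ran from 20% in TEF1 to 41.7% in TEF4, and 4 of the 8 were below the median of the others, as were 49.9% of all genes. EFT1 and YEF3 each held a run of at least 4 As, found in 50.9% of all genes, and a run of at least 5 Us, found in 13% of all genes.

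DMS reads only A and C, so the number of those bases sets how much of a leader the assay can report on. HYP2 had 40 such bases of 52 and EFT1 had 31 of 45. EFT2 had 27, EFB1 22, YEF3 19 and TEF1 17. TEF2 had 15 and TEF4 had 11, the fewest. In percent of the leader, the range was 45.8% in TEF4 to 77.1% in EFT2, and the median was 68.8% against 56.5% in the other genes.

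**Figure D1:**
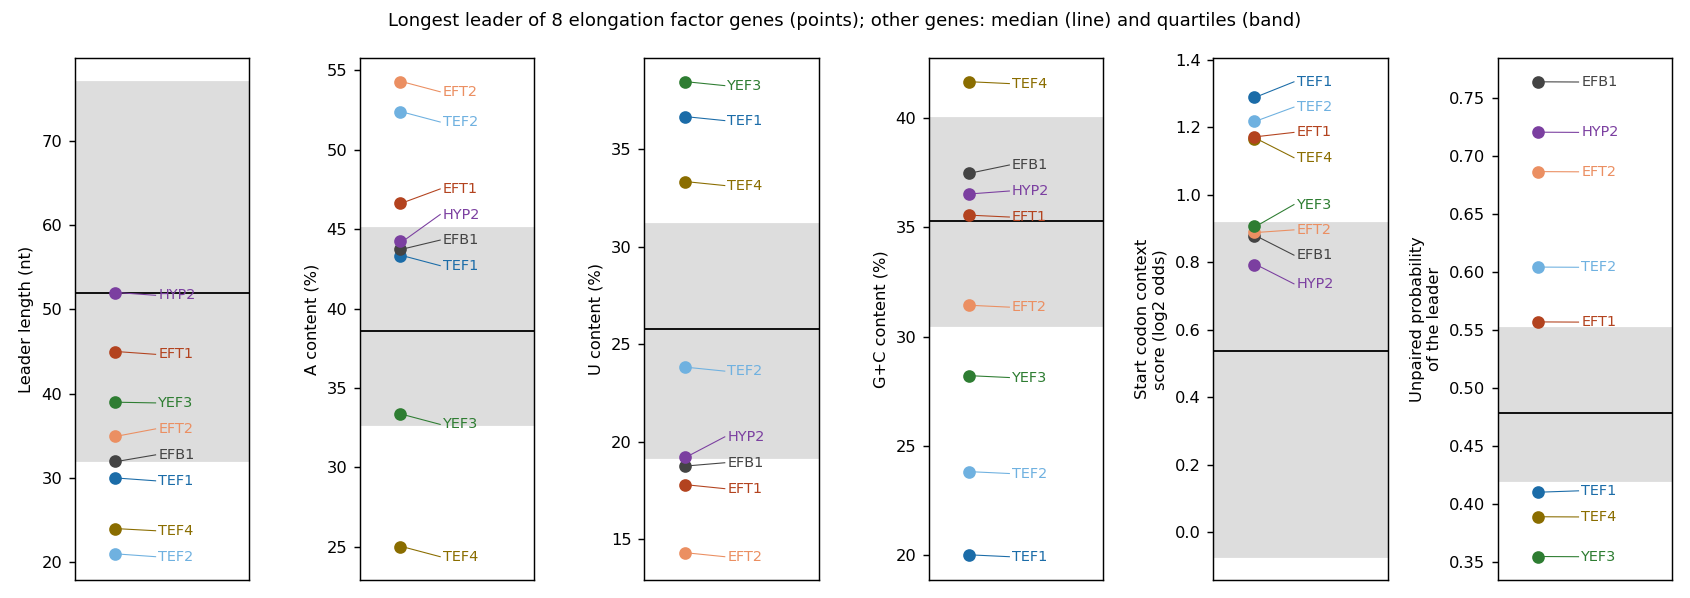
Sequence and predicted-fold features of the longest leader of each elongation factor gene (points) beside the median and quartiles of the other genes. The 8 context scores all lie above the median of the other genes, while the leader unpaired probabilities run from 0.355 in YEF3 to 0.764 in EFB1, on both sides of it.

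The deposited sequences mix capital and lower-case letters, a case not kept in the sequences shown here. In every complete wild-type RNA the start codon was the only lower-case AUG of the insert. Pools of this design are known to write other AUGs as AGU. Only AGUs in lower case, called marked here, were counted, and AGU read as AUG below refers to these alone. Other AGUs were left as they are, such as those at the start of the TEF1 sequence above and near the end of the EFB1 stretch below. None of the 11 leaders, and so none of the 8 genes, held a marked AGU. Of all genes, 15.6% had at least 1 in their longest leader. The longest leaders of the 8 genes were also shorter, with a median of 33.5 nt against 52 nt in the other genes. After the start codon, 7 of the 8 genes held a marked AGU, where 72.5% of all genes did. Of these marked AGUs, TEF1, TEF2, TEF4 and EFB1 each had 1, HYP2 had 2, and EFT1 and EFT2 each had 5. YEF3 had 0. AGU also occurs in natural sequences, and the letter case was not checked against the genome, so a marked AGU need not have been an AUG there.

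The marked AGU of EFB1 lay where a splice signal would stand if it was written for AUG. EFB1 encodes eEF1Bα, the subunit that exchanges the nucleotide on eEF1A, and its gene is known to hold an intron near the start of its coding sequence. If the AGU at 83 to 85, counted with the A of the start codon as 1, is read as AUG, the bases at 81 to 86 become GTATGT, the usual yeast 5′ splice site. The sequence as deposited, with those 6 bases in capitals, is shown because it bears on what the EFB1 RNAs contain.
EFB1: atacattgaaggGTAGTTtccgatttagtt

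Both EFB1 RNAs held it. After it, the 32-nt leader's RNA had 41 more bases of insert and the 20-nt leader's RNA had 53. The reading frame of the start codon met a stop at codon 32, which begins at base 94. Among all genes, GTATGT after the start codon was found in 4.58% and an in-frame stop in 5.02% when AGU was read as AUG, and EFB1 was the member with each. Of the 8 genes, the other 7 had no in-frame stop.

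Pairing was predicted with the ViennaRNA partition function at 30 °C for the whole pool RNA of 182 nt, which carries 3 leading Gs, an insert with leader, start codon and following bases, and a constant end of 20 nt. The unpaired probability of a base is the predicted share of molecules in which it has no partner. Averaged over the leader it had a median of 0.580 in the 8 genes and 0.478 in the others, whose quartiles were 0.420 and 0.552. 5 of the 8 genes were above the median of the others, against 50% of all genes by construction. The 8 values were widely spread: their SD across genes was 0.160, against 0.110 across the other genes, and 3 of them lay below the lower quartile.

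The eEF1A genes differed in this value. TEF1 had 0.410, with 21.6% of the other genes lower, and TEF2 had 0.604, with 86.1% lower. Both the last 12 bases of the insert and the constant end were counted as added for the pool. The low value of TEF1 came with pairing to them. A predicted helix of 10 base pairs joined −19 to −10 of its leader to 124 to 133, in the last 12 bases of the insert and the constant end, with a mean pair probability of 0.868. That probability was 0.0832 with the Andronescu energy parameters and 0.0139 with AGU read as AUG. The helix was thus not stable to the choice of parameters or to that substitution. The AGU so read lies at 44 to 46, while an AGU within the leader side of the helix was not marked and was left as it is. With the leader, start codon and following bases folded alone, without the 3 Gs, the last 12 bases and the constant end, TEF1 had 0.661 and TEF2 0.586, the opposite order.

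In the whole RNA the eEF2 genes lay closer together, EFT1 at 0.557 and EFT2 at 0.686. Of the other genes, 76.2% and 94.5% were lower. EFT1 also paired with the constant end: 6 base pairs joined −30 to −25 to 125 to 130 with a mean probability of 0.999, and 0.989 to 0.999 in the 4 settings that included the constant end. EFT2 had its strongest predicted helices around the start codon. −6 to −2 paired with 55 to 59 at 0.844, and 2 to 5 with 49 to 52 at 0.915. The AGU at 53 to 55 overlaps the first of these helices, and with AGU read as AUG the probabilities were 9.56e-05 and 0.000125. The transcript stretch alone gave 0.560 for EFT1 and 0.739 for EFT2, so the order of the 2 genes was the same.

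YEF3, whose product eEF3 is the ATPase named above, had the lowest leader value of the 8, 0.355, with 8.48% of the other genes lower. Its pairing lay within the transcript: a helix of 9 base pairs joined −35 to −27 to 31 to 39 after the start codon, with a mean probability of 0.899. Further helices of 3 or 4 base pairs closed towards the start codon, at −11 to −9, −7 to −4 and −1 to 2, with probabilities of 0.691, 0.747 and 0.766. The long helix had 0.774 at 37 °C, 0.863 with the Andronescu parameters and 0.895 in the transcript stretch alone. In the insert folded without the constant end it had 0.00265, and the YEF3 leader then had an unpaired probability of 0.528.

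HYP2 and EFB1 had the most open leaders in the whole RNA. HYP2 had 0.720, with 96.3% of the other genes lower, and its 32.7% C and 3.85% G made 76.9% of the leader A or C. EFB1 had 0.764, with 98.1% of the other genes lower. Its strong leader helix joined the leading Gs and −32 and −31 to −26 to −22, with a mean probability of 0.996. The transcript stretch alone gave 0.830 for HYP2 and 0.717 for EFB1, below the 0.739 of EFT2. EFT2 was also above EFB1 with the insert alone, 0.784 against 0.572, and with AGU read as AUG, 0.787 against 0.764.

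TEF4 had 0.389, with 15.3% of the other genes lower. 5 base pairs within its leader, −22 to −18 with −5 to −1, had a mean probability of 0.721, and the leading Gs with the first bases of the leader paired with 3 to 7 at 0.778. In the transcript stretch alone the helix within the leader had a probability of 0.00355, and the leader value was 0.463.

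**Figure D2:**
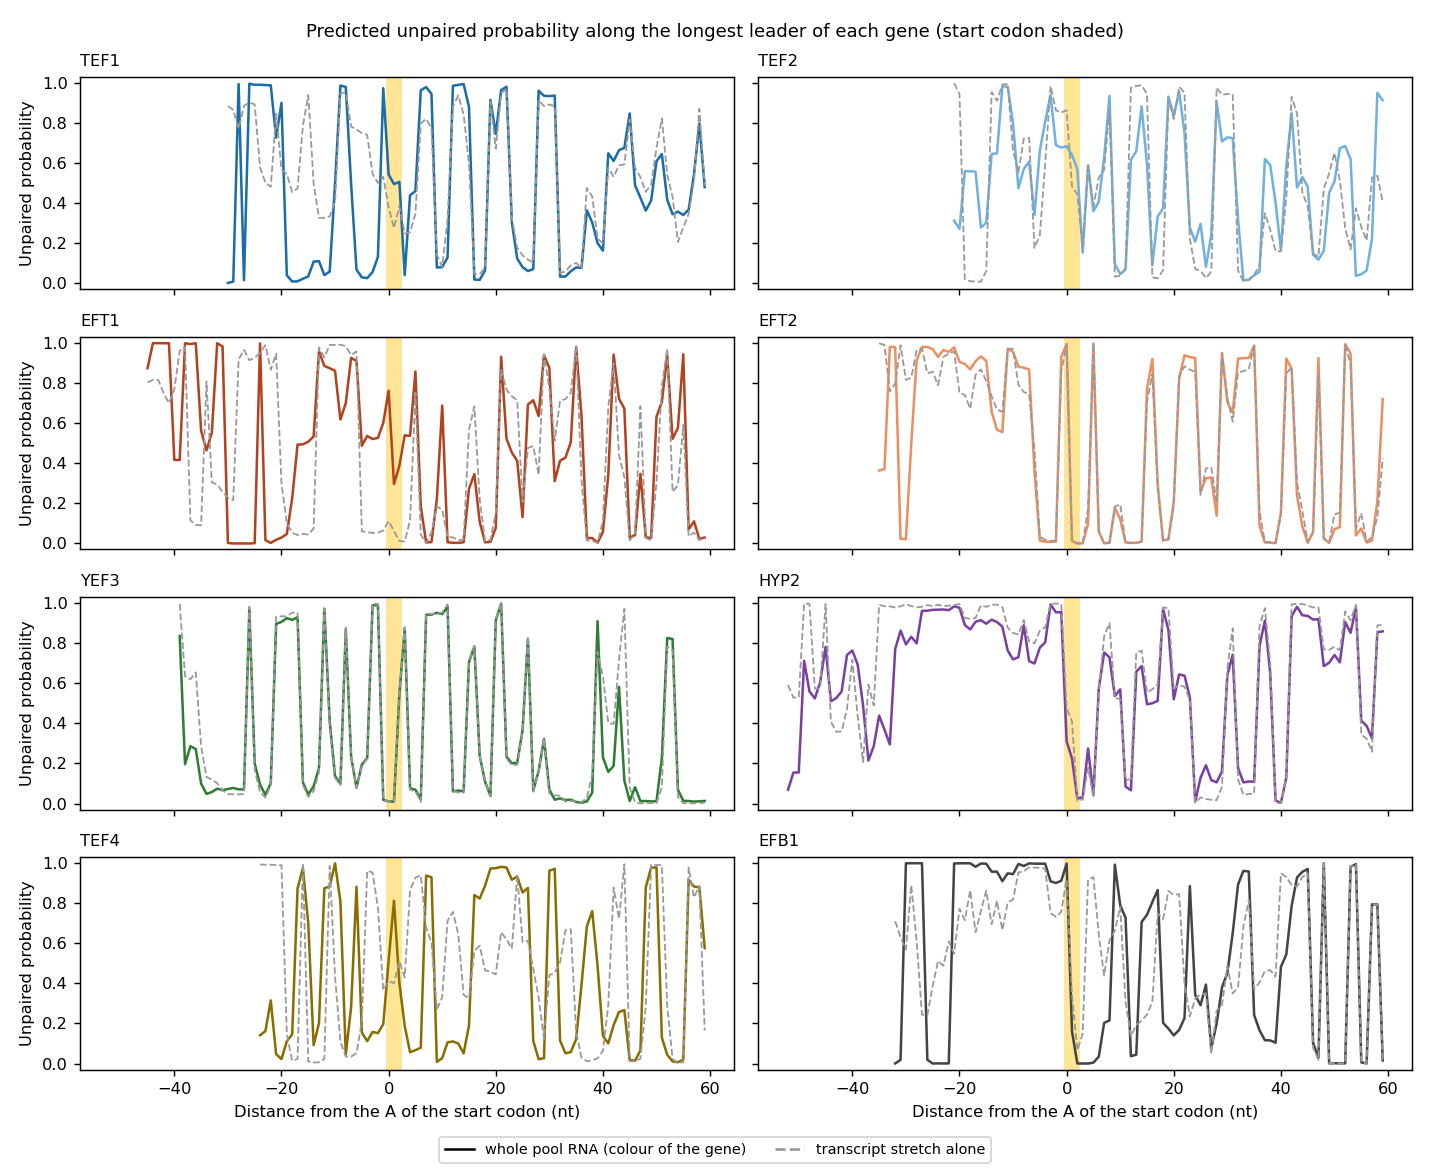
Predicted unpaired probability (vertical axis, 0 to 1) at each base of the longest leader and the first 60 bases from the start codon on, by distance from the A of the start codon in nt, for the whole pool RNA (solid) and the transcript stretch alone (dashed). The leaders of HYP2 and EFB1 stay high over long stretches, the 9 base pairs of YEF3 appear as a low plateau upstream in both lines, and the solid line of TEF1 is low where the dashed line is not.

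The partners of the leader bases differed from gene to gene. The 3 leading Gs, the last 12 bases of the insert and the constant end were counted as parts added for the pool. RNAs of 1 gene differed only within those 12 bases, and the EFB1 RNAs only in the last 5 of them. Their origin was not checked against the genome. The mean probability that a TEF1 leader base paired with a part added for the pool was 0.578, and for the transcript itself it was 0.0117. For EFT1 these were 0.301 and 0.142, and for HYP2 0.193 and 0.0871. In these 3 genes the added parts took at least as much of the pairing as the transcript, which was so in 10% of all genes. YEF3 was at the other end, with 0.00338 against 0.642. TEF4 had 0.0853 and 0.526, and most of its pairing was within the leader, 0.449. TEF2 had 0.0543 against 0.342, EFT2 0.114 against 0.199 and EFB1 0.0938 against 0.143.

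**Figure D3:**
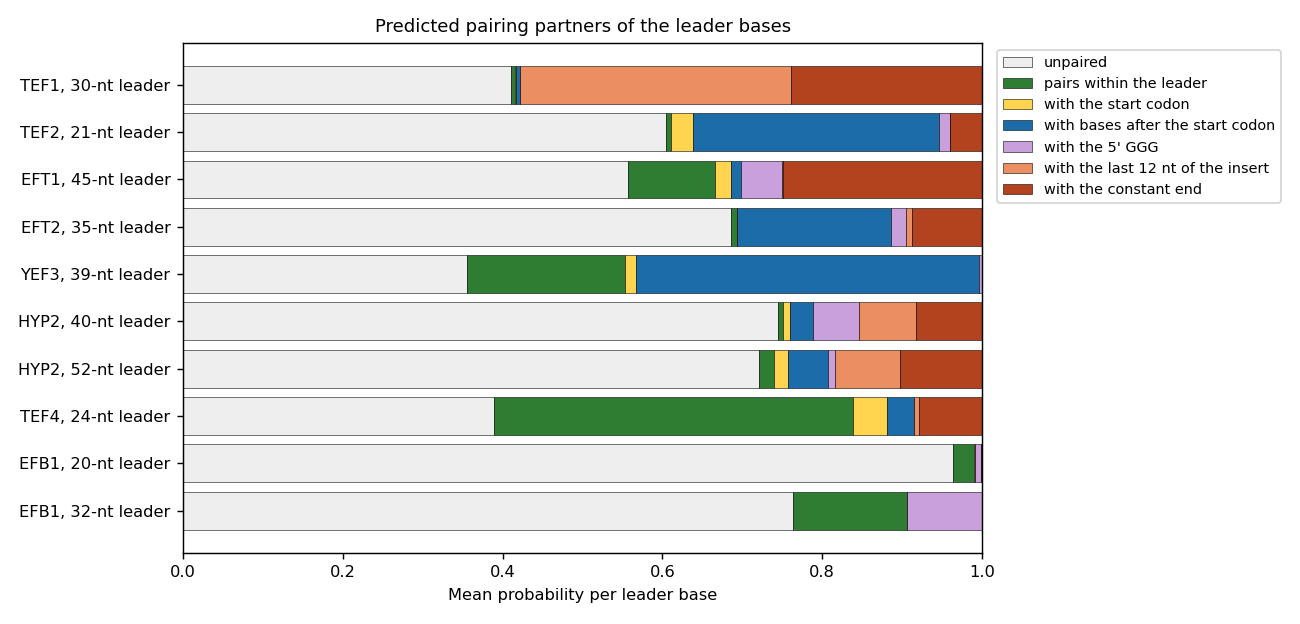
Mean probability per leader base of pairing with each part of the pool RNA, for each leader of at least 10 nt of the 8 genes, with bar segments that add up to 1. TEF1 pairs mostly with the last 12 bases of the insert (0.339) and the constant end (0.239), YEF3 mostly with bases after its start codon (0.430).

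Each leader was also compared with the value fitted from A content, U content and length over the 2265 other genes. C and G entered this fit only as their sum, so the balance of C and G was not set aside. The fitted values ran from 0.408 in TEF4 to 0.578 in EFT2. EFB1 was above its fitted value by 0.246 and HYP2 by 0.199, each more than the residual SD of 0.0948. EFT2 exceeded its own by 0.108. TEF1 and YEF3 were below theirs, with differences of −0.0982 and −0.0981. TEF2, EFT1 and TEF4 differed from theirs by 0.0410, 0.0219 and −0.0191, within the residual SD.

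The bases after the start codon were less open than the leader in 5 of the 8 genes, TEF2, EFT1, EFT2, HYP2 and EFB1, and in 64.8% of all genes. The difference was 0.329 in EFB1 and 0.192 in EFT1, the largest and the smallest of these 5. In TEF1, YEF3 and TEF4 it was −0.0131, −0.0207 and −0.00693, so leader and following bases were about equally open in that fold. In TEF1 the leader had 0.661 against 0.425 after the start codon in the transcript stretch alone, and 0.563 against 0.350 with AGU read as AUG. The leader was the more open in 7 of the 8 genes with the insert alone, with the Andronescu parameters and in the stretch, and in 6 at 37 °C and with AGU read as AUG. The stretch after the start codon itself had a median unpaired probability of 0.396 in the 8 genes and 0.440 in the others, and HYP2 was the only member above the latter, at 0.475. The whole RNAs had predicted folding energies from −55.65 kcal/mol in EFT1 to −36 kcal/mol in HYP2, with a median of −50.5 against −45.6, and 7 of the 8 were lower than the median of the others.

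Around the start codon the members did not stand apart from the other genes as a group. Over 10 nt on each side, the mean unpaired probability had a median of 0.481 against 0.477, with 4 of the 8 genes above the latter. EFB1 had the highest value, 0.600, and EFT2 the lowest, 0.321. TEF2 and HYP2 had 0.538 and 0.542, EFT1 0.487, TEF1 0.474, YEF3 0.446 and TEF4 0.349. The order held for the whole RNA only. In the transcript stretch alone EFT1 had 0.293, the lowest value, and TEF4 had 0.512. With AGU read as AUG in the whole RNA, EFT2 had 0.497. EFB1 stayed the highest in both.

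The start codon itself gave a wider range. The predicted share of molecules with all 3 of its bases open at once was 0.484 in TEF1, 0.351 in TEF2 and 0.222 in EFT1. It was 0.0352 in TEF4 and 0.0234 in HYP2. In YEF3 it was 0.00101, in EFB1 0.000207 and in EFT2 0.000139, so 3 of the 8 genes were under 0.01, where 23.1% of all genes were. EFB1, whose leader was the most open of the 8 in this fold, was thus among the lowest of the 8 by this measure. By the mean unpaired probability of the 3 bases, EFB1 had 0.386, with 47.1% of the other genes lower. HYP2 had 0.187 and YEF3 0.188 by that mean.

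In EFB1 the constant end paired with 2 to 9, which includes part of the start codon, over 8 base pairs at a mean probability of 0.918. In the transcript stretch alone the value for EFB1 was 0.0567. EFT1 changed the other way, from 0.222 in the whole RNA to 0.000958 in the stretch alone. YEF3 and EFT2 stayed low in the stretch, at 0.000873 and 0.000123, and with AGU read as AUG the stretch of EFT2 gave 0.0599. TEF4 had 0.287, TEF2 0.317, TEF1 0.236 and HYP2 0.0126.

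**Figure D4:**
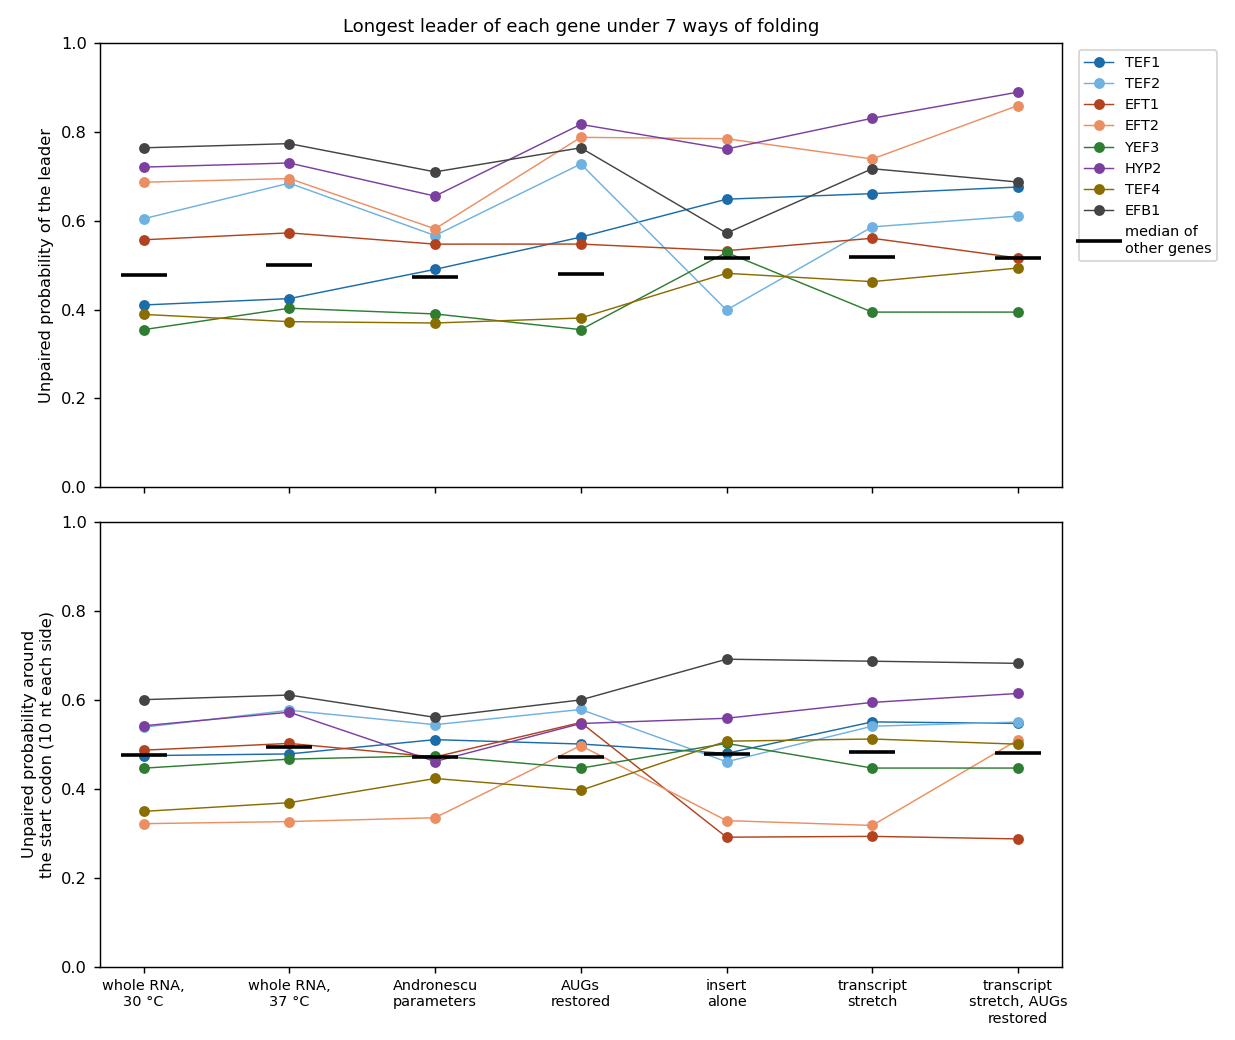
Mean unpaired probability of the longest leader (top) and of the window of 10 nt to either side of the start codon (bottom) of each gene (points joined by lines) under 7 ways of folding, with black bars for the median of the other genes. In the top panel TEF4 lies below the bar and HYP2, EFT2, EFB1 and EFT1 above it each time. EFT1 is barely above it in the stretch with AUGs restored (0.516 against 0.515). YEF3 crosses it with the insert alone (0.528), where TEF2 falls to 0.399, and TEF1 moves from 0.410 in the whole RNA to 0.661 in the transcript stretch.

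TEF1 and TEF2 carried the same 115 bases after the start codon, and EFT1 and EFT2 the same 100, after which the inserts differed at their ends. Their leaders did not match. Counted back from the start codon without gaps, the leaders of TEF1 and TEF2 shared 6 of 21 bases, 28.6%, and those of EFT1 and EFT2 shared 13 of 35, 37.1%. The other 26 pairs of the 8 genes had a median of 33.3%, from 20.8% to 53.3%. Both values thus lay within the range of the other pairs. With gaps allowed, TEF1 and TEF2 shared 56.7% of aligned columns and EFT1 and EFT2 52.0%, against at most 55.6% in the other pairs.

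In each pair the same coding bases thus followed different leaders. Over 117 bases from the start codon on, the unpaired probabilities of TEF1 and TEF2 differed by 0.199 on average, and 8 bases differed by more than 0.5. For EFT1 and EFT2 the mean difference was 0.323, and 30 bases differed by more than 0.5. In the transcript stretch alone the mean differences were 0.162 and 0.203, and with AGU also read as AUG they were 0.103 and 0.144. Over the whole shared sequence the differences were thus smaller without the added parts and smallest with AGU read as AUG. Over its first 30 bases TEF1 and TEF2 kept that order, at 0.156, 0.122 and 0.0948. EFT1 and EFT2 did not: their first 30 bases gave 0.237 in the whole RNA, 0.0877 in the stretch and 0.257 in the stretch so read. There 4, 1 and 7 bases differed by more than 0.5.

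**Figure D5:**
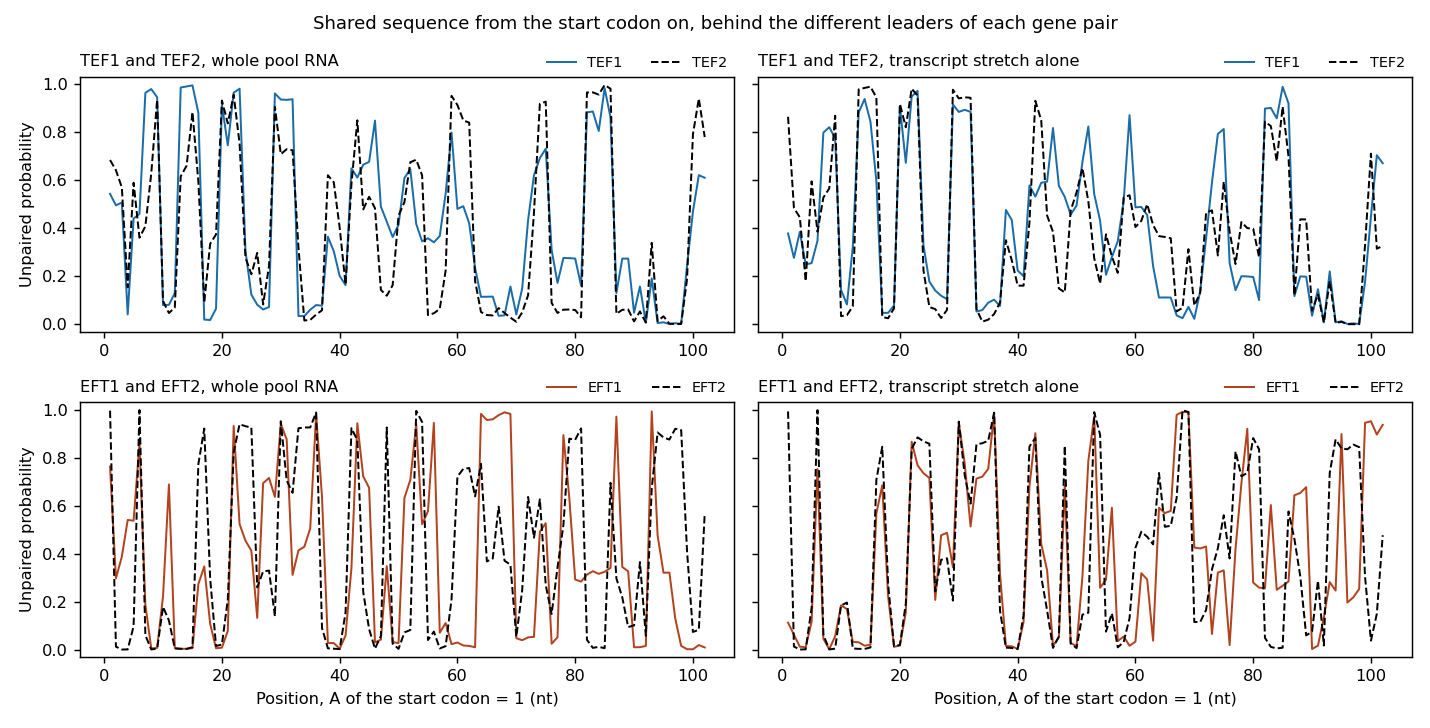
Predicted unpaired probability at each position of the shared sequence from the start codon on (A of the start codon as 1, in nt), for TEF1 and TEF2 (top) and EFT1 and EFT2 (bottom), in the whole pool RNA (left) and the transcript stretch alone (right). The lines of EFT1 and EFT2 part at more positions in the whole RNA, with a mean difference of 0.323, than in the stretch, with 0.203.

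The longest run of bases shared by any leaders of the 8 genes was 9 bases, between HYP2 and EFB1. That run occurred in 8 of the 2273 leaders, and 2.24% of all pairs of genes shared some run of that length.

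In each gene with several leaders the shorter leader was the end of the longer one. Several leaders were found in 3 of the 8 genes and in 59.3% of all genes. EFB1 had an unpaired probability of 0.963 in the 20-nt leader and 0.764 in the 32-nt leader, a range of 0.200 that exceeded that of 89.7% of 1190 other genes with several leaders. The 20 bases shared by both had 0.963 and 0.970, and the 12 bases added in the longer leader had 0.420, so the range lay in the added bases. In the transcript stretch alone the range was 0.124, above 66.1% of the other genes.

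HYP2 had 0.745 with 40 nt and 0.720 with 52 nt, a range of 0.0246, above 16.6% of the other genes. The range was 0.0750, above 45.0%, in the transcript stretch alone and 0.0850, above 64.5%, with the Andronescu parameters. Its start codon paired with 15 to 18 at 0.693 behind the shorter leader and at 0.417 behind the longer one in the whole RNA, but at 0.239 and 0.370, the opposite order, in the transcript stretch alone. TEF4's shorter leader had 2 nt, under the 10-nt minimum for the comparison of leaders. In that RNA all 3 bases of the start codon were open in 0.994 of predicted molecules, against 0.0352 behind the 24-nt leader. In the transcript stretch alone the values were 0.580 and 0.287, a much smaller contrast.

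Other genes of the pathway were listed from knowledge of translation: partner proteins, mitochondrial and termination factors, and the enzymes that modify eEF1A, eEF2 and eIF5A. Of 31 such genes 18 were present in the table, which stops at 1048575 positions, and the counts present in the lists below share that limit. Their leaders had a median length of 41.5 nt, a median A content of 36.2% and a median unpaired probability of 0.475, and 9 of the 18 were above the median for all genes outside the 8. The lowest was EFM2, a methyltransferase gene, at 0.360, and the highest NEW1, an ATPase related to eEF3, at 0.622. 10 of the 18 had A at −3. The 7 initiation factor genes present, of 21 listed, had medians of 57 nt, 36.8% A and 0.525, and 5 had A at −3. The 83 cytosolic ribosomal protein genes present, of 138, had medians of 28 nt, 51.4% A and 0.559, and 69 had A at −3. By medians the elongation factor leaders, at 33.5 nt, 44.0% A and 0.580, lay between those of ribosomal proteins and related factors in length and A content, and above both in unpaired probability. The share of genes with an unpaired probability above the others' median was larger in the ribosomal proteins, 58 of 83, than in the elongation factors, 5 of 8. With the shortest leaders the order of lengths differed, with medians of 32.5 nt in the elongation factors, 28.5 nt in the related factors and 21 nt in the ribosomal proteins. The median unpaired probabilities were then 0.580 in the elongation factors and 0.574 in the ribosomal proteins.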

How the data were processed

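The deposited table lists, for each RNA of the pool and each position, a base, coverage and mutation values. Per the submitters' processing notes STAR and SAMtools were used. For the tool versions and the genome build, nothing is given in the sources used here. Each of the 6 value columns names a replicate number that fits 3 samples and no treatment, so they were not used. The authors deposited the bases as letters, and these were joined by position. The table stops at 1048575 positions, which left 4383 complete wild-type RNAs of 2370 genes. Symbols came from a RefSeq gene table, which matched all 8 genes. The longest leader of at least 10 nt stood for each gene (2273 genes). Folds used ViennaRNA 2.7.2 (partition function, 30 °C), with alternatives at 37 °C, of the insert alone, with Andronescu parameters, and, added after seeing the data, with AGU read as AUG and of the transcript stretch alone. Only AGUs in lower case were counted or read as AUG. The last 12 bases of the insert, where RNAs of 1 gene differ, were left out of the part after the start codon. Helices have at least 3 base pairs. All 8 members are named, with the highest and the lowest related factor. The members and lists were chosen with earlier results of these data known, so no p-value is given. The folding step was checked on simulated data.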

Additional observations from a re-analysis of the deposited data

How the results depend on the processing

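Of 124 values recomputed under an alternative, 13 moved by more than the SD across genes, by over 1.5 times for a count of genes, or beyond the binomial interval of an identity, and 111 did not. The median folding energy was −42.7 kcal/mol at 37 °C, −36.3 for the insert alone, −32.4 for the transcript stretch and −33.6 for the stretch with AGU read as AUG, where fewer bases or a higher temperature give a less negative energy by construction. The genes less stable than the others' median, 1 in the whole RNA, were 2 with the shortest leaders, 3 for the insert alone, 2 with Andronescu parameters, 2 in the stretch and 2 in the stretch with AGU read as AUG. Leaders longer than the others' median, 0 with the longest leader of each gene, were 4 with the shortest (medians 32.5 against 31 nt) and 2 with the mean of the leaders. GC content was above it in 2 genes with the shortest leaders, against 4. TEF1 and TEF2 shared 56.7% with gaps. The causes were not tested. The median leader unpaired probability ran from 0.552 to 0.645, with 5 or 6 of the 8 genes above the others. The window around the start codon fell below the others at 37 °C, 0.490 against 0.494, and with windows of 5 nt, 0.453 against 0.468, and 15 nt, 0.453 against 0.478, and rose to 0.524 against 0.472 with AGU read as AUG and 0.528 against 0.481 in the stretch so read, each with 6 of 8 genes above. No paired analysis was possible because no library value was used, and leaving out replicates was not run for that reason. AGU read as AUG and the transcript stretch were chosen after seeing the data. Predicted folds lack proteins, ions and modified bases, and depth limits none of these values.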
